A study of Mus musculus with 3 samples.

Results

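The factors that start and elongate protein synthesis were followed in 3 whole-lung RNA sequencing libraries of mice on a C57BL/6J/mixed background. They were taken by name, as every RefSeq transcript whose mouse symbol begins with Eif1 to Eif6, Eef1 or Eef2, leaving out Eif2s3y. This gave 64 transcripts of 34 genes among 16383 transcripts. The rule uses names alone, although the group was picked with earlier results of these data known. RefSeq lists 70 protein-coding genes under the same names, and the other 36 were not analysed here.

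WT was 1 library labelled wild type. DKO 1 and DKO 2 were 2 libraries labelled as knockout of Lin28a and Lin28b, in which tamoxifen induced the removal of a loxP-flanked exon 2 through a Cre recombinase (NKX2.1creERT) expressed from Nkx2-1 in lung epithelium. The labels do not say whether WT carried the recombinase or received tamoxifen. Age, sex and the number of animals behind the DKO libraries are not stated either, so p-values measure only the spread between these libraries, which may be technical. Lin28a and Lin28b encode RNA-binding proteins known for blocking the maturation of let-7 microRNAs. The study asked what they do in branching and epithelial differentiation of the lung.

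Translation begins when eIF2, loaded with GTP and the initiator tRNA, joins the small ribosomal subunit together with eIF1, eIF1A and eIF3. The mRNA is brought in by its cap, which eIF4E binds, and the eIF4E-binding proteins block that step until mTOR phosphorylates them. The exchange factor eIF2B recharges eIF2, and kinases that sense stress stop the recharging by phosphorylating eIF2 alpha. Once the large subunit has joined, eEF1A delivers aminoacyl-tRNAs and eEF2 moves the ribosome along. Growing tissues make much protein and are known for abundant mRNAs of these factors.

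Values were RPKM, read numbers divided by the length of the transcript and by the depth of the library. The depth, estimated from the worth of 1 read, was about 48700000 reads in WT, 30700000 in DKO 1 and 34200000 in DKO 2. Lin28b stood at 0.449 RPKM in WT, with DKO 1 at 0.187 and DKO 2 at 0.590, so the library labelled DKO 2 was not lower than WT in this gene. These values are under 1 RPKM and cover the whole transcript in whole lung. They do not measure the loss of exon 2 in the epithelium. Lin28a was not analysed here. The libraries also differed in markers of cell types. The 8 lung epithelial markers, of which 6 could be tested, summed to 409, 23.7 and 28.6 RPKM in the same order, with Nkx2-1 listed at 0 in every library. Most of that sum in WT was the surfactant gene Sftpc (369 RPKM, with 7.55 in DKO 1 and 0.0364 in DKO 2). Without Sftpc the sums were 39.3, 16.2 and 28.5 RPKM, and Krt18 was higher in DKO 2 (14.7 RPKM) than in WT (12.2). Erythroid markers summed to 20199, 28712 and 102767 RPKM, immune markers to 31.6, 349.6 and 191.9, and liver markers to 7.55, 11.4 and 183. Heart muscle markers summed to 21.1, 13.7 and 81.8 RPKM, mesenchymal markers to 65.8, 99.4 and 65.0, and endothelial markers to 3.09, 3.11 and 3.13. Haemoglobin genes took 5.36%, 7.24% and 21.0% of all RPKM. Y-linked Ddx3y was listed at 0 in WT but reached 5.49 RPKM in DKO 1 and 2.64 in DKO 2, so by Y-linked genes sex and genotype cannot be told apart.

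Of the 64 transcripts, 40 (62.5%) were listed at 0 in every library, beside 68.0% of all transcripts. These zeros need not mean silence, since Eif4g2, Eif5a and Eef1d are genes that nearly every cell uses. Every one of the 6 Eef1d transcripts and both Eif4g2 transcripts were listed at 0, and 7 of 8 Eif5a transcripts were. Among the 16 genes with a single RefSeq mRNA, 3 had no value above 0, against 8 of the 18 genes with several. The other genes with no value above 0 were Eef1akmt3, Eif2ak4, Eif3j2, Eif3k, Eif4a1, Eif4a3l1, Eif4e1b, Eif4enif1 and Eif4g3. A further 11 transcripts lay above 0 with a mean under 1 RPKM. The remaining 13, each of another gene, reached a mean of 1 RPKM or more and entered the test, and all 13 were above 1 RPKM in each library.

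In the 13 tested genes the initiation factors and eEF1A lay mostly below WT, and the repressor gene Eif4ebp1 lay far above it. A total of 8 were below WT in both DKO libraries, where 31% of the 2066 tested transcripts were. Eif4ebp1 was above WT in both, as were 32.1% of tested transcripts. Eif1, Eif3e, Eif6 and Eef2 had a DKO library on either side, as 36.9% did. The median log2 difference from WT, on the log2(RPKM + 1) scale used throughout, was −0.45 over the 13 genes (−0.34 in DKO 1 and −0.36 in DKO 2), beside −0.01 over all tested transcripts (−0.01 and 0.04).

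None of the 13 passed the test. Limma with Benjamini-Hochberg adjustment over all tested transcripts called 0 of 13, with an adjusted p of 0.999 for each, and it called 0.0968% of all tested transcripts. At an unadjusted p under 0.05 it had 1 of 13, Eif4ebp1, beside 3.19% of all. The test rests on 1 residual degree of freedom from the DKO libraries, and rearranging 3 labels can give no p below 0.333. By size, 0 of 13 were at least 2-fold above WT and 0 were at least 2-fold below it in both DKO libraries with these closer to each other than to WT, beside 3.19% and 1.5% of all tested transcripts. Eif2s3x, at 0.457 and 0.486 of the WT RPKM, lay at the threshold and met the rule with a pseudocount of 0.1 and with each other scaling tried. In bulk lung, fewer cells of a type and less RNA per cell cannot be told apart.

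**Figure D1:**
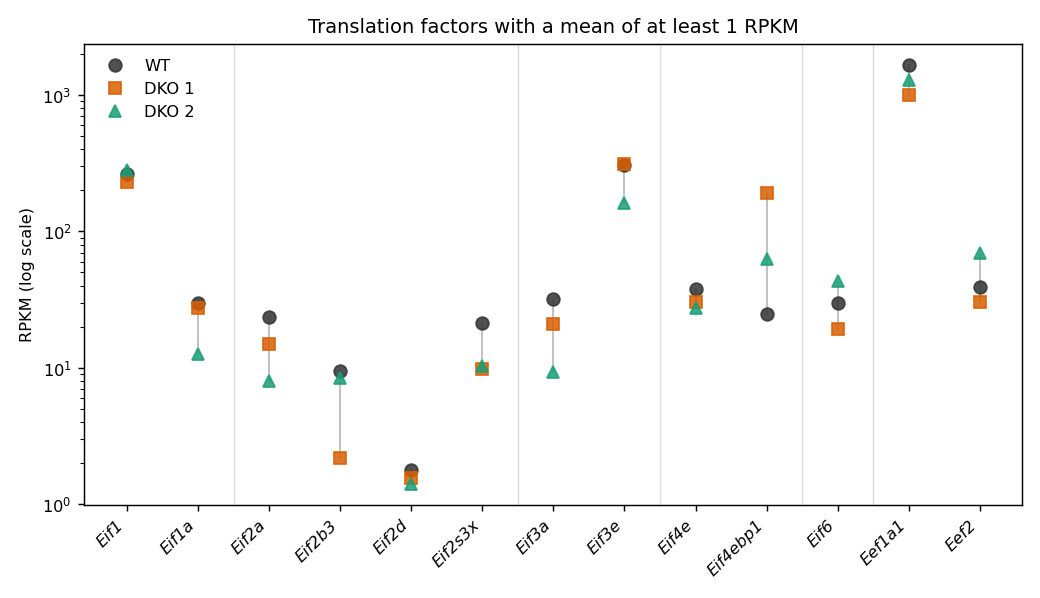
RPKM (log axis) of the 13 translation factor genes with a mean of at least 1 RPKM, with 1 point per library (circle WT, square DKO 1, triangle DKO 2) and grey lines joining the points of a gene. Eef1a1 stands highest in each library, Eif4ebp1 is the gene with both DKO points above WT, and Eif3a, Eif2a and Eif1a are lowest in DKO 2.

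Among the start site factors, Eif1, which guards the fidelity of start codon choice, was abundant and similar in the 3 libraries (chromosome 11, 100319949 to 100322099, GRCm38). It had 264 RPKM in WT compared with 232 in DKO 1 and 284 in DKO 2. The difference was −0.19 in DKO 1 and 0.11 in DKO 2 on the log2 scale, and that of DKO 2 was −0.27 after rescaling to TPM. Eif1a, an autosomal copy of the gene for the scanning factor eIF1A (chromosome 18, 46597704 to 46610225), had 29.7 RPKM in WT against 27.7 in DKO 1 and 12.7 in DKO 2. DKO 2 alone was low, at 0.427 of WT (95% exact binomial interval on approximate reads 0.400 to 0.455). Such intervals cover counting error only, since amplified reads are not independent molecules. The ratio of Eif1 to Eif1a was thus 8.87 in WT, 8.37 in DKO 1 and 22.4 in DKO 2. Eif1a has the close X-linked copy Eif1ax, which was not analysed here, so their reads may be shared. RefSeq lists 2 mRNAs for Eif1a, of which 1 is among the transcripts here, so its value may cover only part of the gene.

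All 4 tested genes around eIF2 were lower than WT in both DKO libraries, and their median log2 difference was −0.98 (DKO 1 −0.83, DKO 2 −0.59). Eif2s3x encodes the gamma subunit, the GTP- and tRNA-binding core of eIF2 (X chromosome, 94188709 to 94212651). It had 21.4 RPKM in WT compared with 9.77 in DKO 1 and 10.4 in DKO 2. The DKO values (10.1 ± 0.434 RPKM, SD, n = 2) were close together. Both were below WT, as was the case for 31% of all tested transcripts. Its log2 difference was −1.01 (SE 0.70, limma adjusted p = 0.999), and the DKO libraries differed by 0.08, which together with Eif2d was the smallest gap between them among the 13 genes.

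Eif2s3x has a near-identical partner on the Y chromosome, Eif2s3y, which is not counted among the factors here and is given because the comparison turns on it. Eif2s3y was listed at 0 in WT but reached 15.0 RPKM in DKO 1 and 5.07 in DKO 2. The genes together had 21.4 RPKM in WT against 24.8 in DKO 1 and 15.5 in DKO 2. WT therefore lay between the DKO libraries in the sum, although it was above both in Eif2s3x. The Y copy made up 60.5% of the sum in DKO 1 and 32.8% in DKO 2. The helicase gene Ddx3x, chosen after its values were seen, is X-linked with a Y-linked partner as well, and it stood at 35.1 RPKM in WT, with DKO 1 at 25.0 and DKO 2 at 17.4. With Ddx3y its sums were 35.1, 30.5 and 20.0 RPKM, so there WT stayed the highest. Reads of such X and Y copies may be shared.

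**Figure D2:**
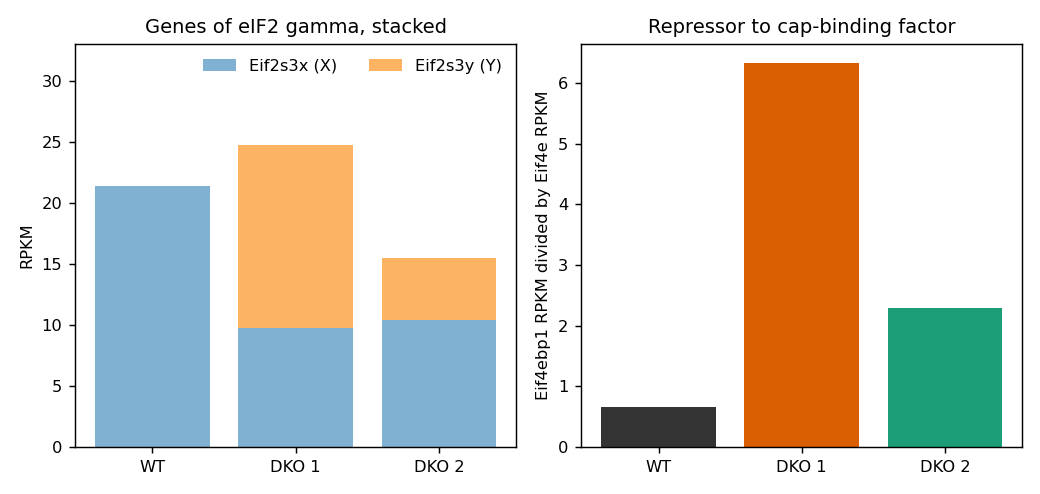
Left, RPKM of Eif2s3x and Eif2s3y stacked for each library, on an axis from 0; right, the RPKM of Eif4ebp1 divided by that of Eif4e in each library, on an axis from 0. Eif2s3x is 9.77 and 10.4 RPKM in the DKO libraries and 21.4 in WT, while the stacked sums are 21.4, 24.8 and 15.5, and the ratio is 0.658 in WT, 6.33 in DKO 1 and 2.30 in DKO 2.

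Eif2a, whose product brings initiator tRNA to some mRNAs and is distinct from eIF2 alpha, had 23.4 RPKM in WT compared with 15.0 in DKO 1 and 7.97 in DKO 2 (chromosome 3, 58525821 to 58557501). Both DKO libraries were below WT, and DKO 2 was the lowest, at 0.341 of WT (0.312 to 0.372). Its log2 difference was −1.02 (SE 0.74). Eif2b3, a subunit of the exchange factor eIF2B (chromosome 4, 117019399 to 117086852), had 9.48 RPKM in WT against 2.17 in DKO 1 and 8.42 in DKO 2. Here DKO 1 alone was low, at 0.229 of WT (0.183 to 0.280), whereas DKO 2 was at 0.888 (0.787 to 1.001), an interval that included 1. RefSeq lists 3 mRNAs for Eif2b3, of which 1 is among the transcripts here, so its value may cover only part of the gene. Eif2b4, another subunit of eIF2B, had 1 of its 3 transcripts above 0, at 0.0155 RPKM in DKO 1. Eif2d, which can deliver tRNA to the ribosome outside the eIF2 route, stood at 1.79 RPKM in WT, with DKO 1 at 1.55 and DKO 2 at 1.41. Its intervals, 0.672 to 1.12 of WT in DKO 1 and 0.603 to 1.01 in DKO 2, each included 1.

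The kinases of eIF2 alpha were all under the level for testing, and they went apart. Eif2ak1, the haem-regulated kinase of red cell precursors (chromosome 5, 143817792 to 143902717), had 0.296 RPKM in WT compared with 0.330 in DKO 1 and 1.32 in DKO 2. That is about 62, 44 and 195 reads. DKO 2 was high alone, at 4.46 times WT (3.35 to 6.07), and it was also the library with the most erythroid marker RPKM. The erythroid regulator Klf1 had 0.0803, 0.340 and 7.18 RPKM in the same order. The part of red cells in the Eif2ak1 value was not tested. Eif2ak3, the kinase of the endoplasmic reticulum (PERK), had 0.347 RPKM in WT against 1.39 in DKO 1 and 0.254 in DKO 2 (approximately 76, 193 and 39 reads). It was DKO 1 that stood out here, at 4.01 times WT (3.08 to 5.33). RefSeq lists 2 mRNAs for Eif2ak3, of which 1 is among the transcripts here, so its value may cover only part of the gene. Eif2ak2, the kinase that senses double-stranded RNA (PKR), had 0.475, 0.460 and 0.547 RPKM, and its ratios to WT of 0.968 (0.693 to 1.35) and 1.15 (0.851 to 1.56) had intervals that included 1. Both transcripts of Eif2ak4, the kinase that senses lack of amino acids, were listed at 0.

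**Figure D3:**
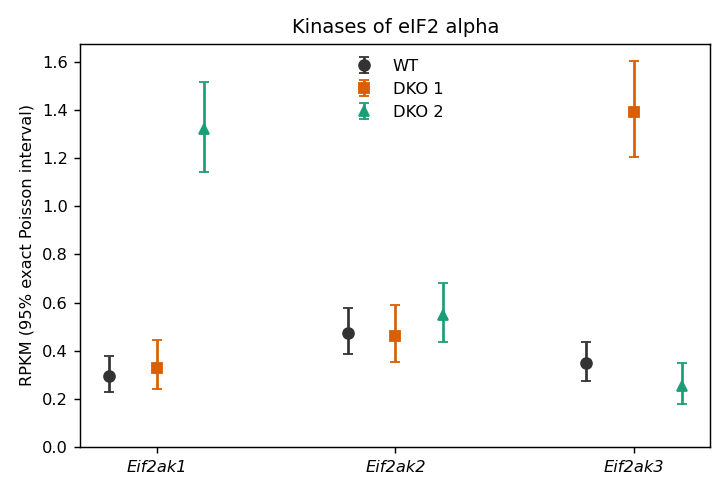
RPKM of 3 eIF2 alpha kinase genes in each library (circle WT, square DKO 1, triangle DKO 2), on an axis from 0, with 95% exact Poisson intervals on approximate reads as bars. Eif2ak1 is high in DKO 2 at 1.32 RPKM, Eif2ak3 is high in DKO 1 at 1.39 RPKM, and the intervals of Eif2ak2 overlap in all 3 libraries.

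Of the eIF3 complex, the scaffold that holds the small subunit, 2 of 4 genes could be tested. Eif3a, its largest subunit (chromosome 19, 60761116 to 60790693), had 32.0 RPKM in WT compared with 21.0 in DKO 1 and 9.34 in DKO 2. Both DKO libraries were below WT and DKO 2 the most, at 0.292 of WT (0.277 to 0.308). Its log2 difference of −1.13 (SE 0.78, limma adjusted p = 0.999) was the lowest of the 13 genes, and the gap between the DKO libraries was 1.09. Eif3e (chromosome 15, 43250040 to 43282736) had 308 RPKM in WT against 314 in DKO 1 and 162 in DKO 2. DKO 1 was thus level with WT and DKO 2 alone low, at 0.526 (0.513 to 0.539). The small positive difference of DKO 1, 0.03, turned to −0.02 with median scaling and to −0.05 with TPM. Although subunits of 1 complex, the genes did not keep 1 ratio, and Eif3e stood at 9.65 times Eif3a in WT, 14.96 times in DKO 1 and 17.4 times in DKO 2.

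At the cap, the gene of eIF4E was somewhat below WT and that of its repressor far above it. Eif4e, the cap-binding factor (chromosome 3, 138526191 to 138559696), had 37.8 RPKM in WT compared with 30.4 in DKO 1 and 27.4 in DKO 2. The DKO values (28.9 ± 2.13 RPKM, SD, n = 2) lay close together below WT, and the log2 difference was −0.38 (SE 0.76). Eif4ebp1 (chromosome 8, 27260327 to 27275656) had 24.9 RPKM in WT against 192 in DKO 1 and 62.9 in DKO 2. Both DKO libraries were above WT, and they differed from each other by 1.60 on the log2 scale, more than DKO 2 differed from WT. DKO 1 was at 7.73 times WT (7.40 to 8.08) and DKO 2 at 2.53 times (2.41 to 2.66). The log2 difference was 2.10 (SE 0.88), with 2.90 in DKO 1 and 1.30 in DKO 2, an unadjusted limma p of 0.0339 and an adjusted p of 0.999. Eif4ebp1 was at least 2-fold above WT in both DKO libraries, as were 3.87% of tested transcripts, but it missed the size rule because of the gap between them.

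The RPKM of the repressor was therefore below that of its target in WT, at 0.658 of the Eif4e value. It was above that value in DKO 1 (6.33 times) and DKO 2 (2.30 times). RefSeq lists 2 mRNAs for Eif4e, of which 1 is among the transcripts here, so the Eif4e value may cover only part of the gene. The order of Eif4ebp1, highest in DKO 1 and lowest in WT, was that of 11% of tested transcripts. Among the immune markers, Tyrobp, a receptor adaptor of myeloid cells, stood at 24.9 RPKM in WT, with DKO 1 at 219 and DKO 2 at 52.3, and C1qb, a macrophage complement gene, had 0.812, 19.4 and 4.90. All 4 tested immune markers were above WT in both DKO libraries, and Cd52 (2.82, 39.1 and 27.1 RPKM) also peaked in DKO 1, whereas S100a8 (3.04, 72.2 and 108 RPKM) peaked in DKO 2. All 3 transcripts of Ptprc, which defines leukocytes, were listed at 0, and here too such zeros need not mean silence. The part of immune cells in the Eif4ebp1 value was not tested.

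The other members of the cap class were near 0. Eif4ebp2, a related repressor, had 0.0115, 0.183 and 0.147 RPKM, or about 1, 8 and 7 reads. The ratios to WT, 15.9 (1.70 to 564) and 12.8 (1.28 to 450.0), are wide because WT rests on 1 read. Eif4a2, a helicase of the cap complex, had 1 of its 3 transcripts above 0, with 0.400 RPKM in WT and 0.0409 in DKO 1, and DKO 2 was listed at 0. Eif4e2, a cap-binding homologue that represses translation, reached 0.254 RPKM in WT and 0.534 in DKO 1, and DKO 2 was listed at 0. Of the 17 transcripts of cap-binding factors and helpers, 14 were listed at 0 in every library, so Eif4e is the one gene that speaks for this class.

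Of the late initiation factors, Eif6, which keeps the large subunit from joining too early, was tested (chromosome 2, 155819837 to 155826925). It had 30.1 RPKM in WT compared with 19.1 in DKO 1 and 43.1 in DKO 2. WT lay between the DKO libraries, which differed by 1.13 on the log2 scale, more than either differed from WT. Eif5a, whose product carries the modified residue hypusine, had a single transcript above 0, at 0.277 RPKM in DKO 1, or about 11 reads. Dhps, the first enzyme of hypusine synthesis, had 3.61, 4.58 and 2.66 RPKM, likewise on either side of WT.

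Among the elongation factors, Eef1a1 was the most abundant of all the factors (chromosome 9, 78478453 to 78481724). It had 1659 RPKM in WT against 994 in DKO 1 and 1288 in DKO 2, and it ranked 55, 75 and 69 among the 2066 tested transcripts. Both DKO libraries were below WT, at 0.599 (0.593 to 0.605) and 0.776 (0.770 to 0.783) of it. The log2 difference was −0.55 (SE 0.74, limma adjusted p = 0.999). Counting error is small at this depth, and the gap of 0.37 between the DKO libraries is the better measure of the spread. Eef1a1 alone gave 66.8% of the RPKM summed over all 64 transcripts in WT, 52.5% in DKO 1 and 64.8% in DKO 2. Without it the sum was 823 RPKM in WT compared with 898 in DKO 1 and 701 in DKO 2, with WT between the DKO libraries. Eef1a1 has processed copies in the genome, so part of its reads may be shared. Its muscle and nerve counterpart Eef1a2 had about 1 read in WT and was listed at 0 in the DKO libraries.

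Eef2, the translocation factor (chromosome 10, 81176631 to 81182509), went the other way from Eef1a1 in DKO 2. It had 38.9 RPKM in WT against 30.5 in DKO 1 and 69.0 in DKO 2. DKO 2 was high, at 1.78 times WT (1.72 to 1.84), and DKO 1 was low, at 0.786 (0.751 to 0.822). Eef1a1 thus stood at 42.7 times Eef2 in WT, 32.6 times in DKO 1 and 18.7 times in DKO 2. Eef2k, the kinase that silences eEF2, had about 4 reads in WT and 1 in DKO 1, on different transcripts. The methyltransferase gene Eef1akmt3 was listed at 0.

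**Figure D4:**
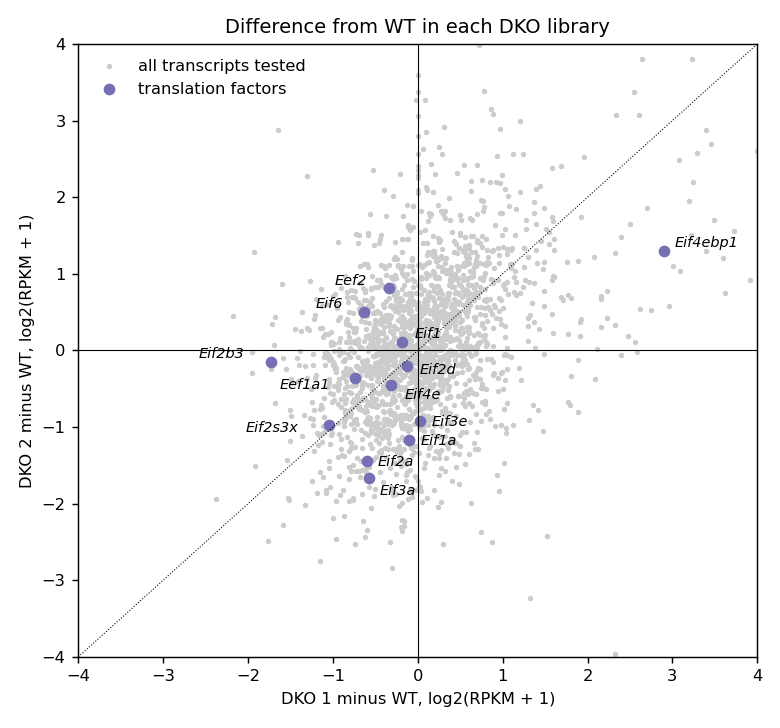
Difference from WT in log2(RPKM + 1) for DKO 1 (horizontal) and DKO 2 (vertical), with all tested transcripts in grey, the 13 translation factors in purple and a dotted line where both DKO libraries differ alike; 10 grey transcripts lie outside the axes. The lower left quadrant holds 8 of the 13, Eif2s3x lies near the dotted line, and Eif4ebp1 is alone among them in the upper right quadrant.

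The order of the libraries varied within the group. WT was highest and DKO 2 lowest for Eif1a, Eif2a, Eif2d, Eif3a and Eif4e, 5 of 13, beside 18.2% of tested transcripts. WT was highest and DKO 1 lowest for Eif2b3, Eif2s3x and Eef1a1, 3 of 13, beside 12.8%. In DKO 1 a total of 11 of 13 lay below WT, beside 50.4% of all, and in DKO 2 9 of 13, beside 47.9%. At least 2-fold below WT were Eif2b3 and Eif2s3x in DKO 1 (2 of 13, beside 5.52%) and Eif1a, Eif2a and Eif3a in DKO 2 (3 of 13, beside 11.8%). Transcript length moved with the difference in DKO 2. The median over all tested transcripts was 0.20 among the shortest, 0.05 among those of middle length and −0.09 among the longest of 3 groups of nearly equal size. The factors had medians of −0.02, −0.29 and −0.97 in the same groups, the last over Eif2s3x, Eif3a and Eif4e. These medians rest on 4, 6 and 3 factors. In DKO 1 the medians were 0.02, −0.04 and −0.03 over all tested transcripts, and −0.41, −0.23 and −0.58 over the factors. The part of length in these values was not tested.

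Several of these mRNAs are known for a 5′ terminal oligopyrimidine (TOP) tract, a run of C and T at the very start of the mRNA through which mTOR controls their translation. Of 9 genes listed for it, 4 were in the table and Eef1a1, Eef2 and Eif3e were tested. Their log2 differences were −0.55, 0.24 and −0.45. The value of Eif3e is the median of these 3 and also that of the 13 genes, which include them. The 2 medians therefore make no comparison. RefSeq (GRCm38.p6) gave 9 promoter windows for 8 of the 13 genes, and Eif1a, Eif2b3, Eif3e, Eif4ebp1 and Eif6 had none. A set of 5 is printed to show where runs of C and T lie around the annotated starts. Each is 60 bases, 30 before and 30 from the annotated start on, 5′ to 3′ on the strand of the gene, with the longest run of C and T in capitals.
Eef1a1, chr9:78481695-78481754, minus strand: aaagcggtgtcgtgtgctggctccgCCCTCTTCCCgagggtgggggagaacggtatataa
Eef2, chr10:81176601-81176660, plus strand: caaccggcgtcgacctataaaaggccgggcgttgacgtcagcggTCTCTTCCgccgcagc
Eif2s3x, chrX:94212622-94212681, minus strand: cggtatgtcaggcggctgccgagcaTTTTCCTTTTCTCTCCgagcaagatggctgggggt
Eif3a, chr19:60790664-60790723, minus strand: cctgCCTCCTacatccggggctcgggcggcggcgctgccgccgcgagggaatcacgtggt
Eif2a, chr3:58525791-58525850, plus strand: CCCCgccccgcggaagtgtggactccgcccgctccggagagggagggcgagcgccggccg

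Eif2s3x had the longest run among them, 16 bases across the start, and it was the 1 window of 9 with a C at the annotated start followed by at least 4 bases that are each C or T, beside 2.51% of the 32851 windows of the table. In Eef1a1 the run of 10 bases also spans the annotated start, but the window ends in tatataa, which lies after that start. In Eef2 tataaa lies before the annotated start, and a run of 8 bases begins at base 15 after it. Whether transcription begins at the annotated starts was not tested, so a run there need not be a TOP tract. Eif3a and Eif2a had runs of 6 and 4 bases, where the median of all windows was 5. A run of at least 8 bases was present in 4 of the 9 windows, beside 22.9% of all. Over the full 300 bases, read on both strands, the GC box GGGCGG was in 6 of the 9 windows, beside 35.7% of all, and the E-box CACGTG, the site of Myc and Max, in 3 (Eef2, Eif3a and 1 of 2 for Eif4e), beside 7.15%. The ETS core CCGGAA was in 1, that of Eif2d, beside 14.9%, and TATAAA was in 1, that of Eef2, beside 13.6%.

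The other genes of protein synthesis, in 8 lists, gave 10 tested transcripts, and limma called 0 of 10 (each adjusted p = 0.999), beside 0.0968% of all tested transcripts. Their median log2 difference was −0.31 (−0.10 in DKO 1 and −0.41 in DKO 2), with 5 of 10 below WT in both DKO libraries, beside 31% of all, and 3 above it, beside 32.1%. Ncbp1, which encodes the large subunit of the nuclear cap-binding complex, was the 1 gene of the 10 at least 2-fold below WT by the size rule, beside 1.5% of all. It had 15.6 RPKM in WT compared with 6.26 in DKO 1 and 6.84 in DKO 2, a log2 difference of −1.14 (SE 0.67). Of 3 tested partners of the cap and the poly(A) tail, 2 were below WT in both and Pabpc1, the poly(A)-binding protein, was slightly above it with 76.8, 77.6 and 91.8 RPKM, and its differences of 0.01 and 0.25 turned to −0.06 and −0.12 with TPM. In the list of the stress response on eIF2, Asns, an amino acid synthesis gene that this response is known to raise, had 8.52, 3.94 and 5.81 RPKM. Both DKO libraries were thus below WT in Asns. Ppp1r15a, whose product reverses eIF2 phosphorylation, was under the level for testing, with 0.220, 0.838 and 0.627 RPKM. Atf4 and Ddit3 of the same list were listed at 0 in every library, which need not mean silence.

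In the mTOR list the 1 tested gene was the S6 kinase gene Rps6kb1, with 2.66, 3.77 and 3.12 RPKM. Abce1, the ribosome recycling factor, had 15.4, 13.1 and 10.5 RPKM and was the 1 tested gene of release and recycling. The 3 tested genes of tRNA charging went apart, with Hars at 20.2, 14.8 and 18.7 RPKM, Vars at 1.35, 2.51 and 1.90, and the scaffold gene Aimp1 at 168, 175 and 99.0. Aimp1 kept the pattern of Eif3e, level in WT and DKO 1 and low in DKO 2. No mitochondrial translation factor and no diphthamide enzyme reached the level for testing.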

How the data were processed

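Whole-lung RNA of 3 libraries (1 WT, 2 DKO) was extracted with Trizol and made into libraries with the SMARTer Ultra Low Input kit, per the labels. Per the submitters' processing notes, cutadapt, TopHat2, HTSeq and edgeR were used with build mm10; neither versions, order, transcript lengths and scaling total nor the use of strand are known here. Genes that overlap, or lie antisense to each other, are therefore uncertain. The authors deposited RPKM for 16383 RefSeq transcripts, 1 column per library. RefSeq (GRCm38.p6) named 16151 of them and GENCODE M21 a further 77. The members and gene lists were chosen with earlier results of these data known, as was the rule for named genes: every member with a mean of at least 1 RPKM is given in full, and the others by counts and ranges or where they complete a complex.

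Log2(RPKM + 1) was fitted for the 2066 transcripts that averaged 1 RPKM or more, with limma 3.58.1 in R 4.3.3 (empirical Bayes with a trend of variance on mean). P-values were two-sided and adjusted by Benjamini-Hochberg, with a threshold of 0.05. The procedure was tried on simulated data with less noise than these, and with planted changes larger than most differences of the factors. That trial therefore does not show what the test can detect here. Fold changes on this scale understate those of low genes. The residual degrees of freedom were 1 and the prior degrees 11.2; WT was assumed to vary like the DKO libraries. The size rule asked for at least 2-fold from WT in both DKO libraries, these differing by less than the smaller difference. The worth of 1 read was sought as the commonest low value of RPKM times annotated length. Values up to 100 reads fell within 0.05 of a whole number for 44.8% (WT), 45.3% (DKO 1) and 37.4% (DKO 2), so read numbers are approximate. They were used for exact intervals at the 95% level and are printed for some low values, and no limma test used them.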

Additional observations from a re-analysis of the deposited data

How the results depend on the processing

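The alternatives were pseudocounts of 0.1 and 5, no filter on low values or one at 5 RPKM, scaling to the median, by quantiles or to TPM, removal of haemoglobin genes, moderation that was robust or had no trend, a 1.5-fold rule and leaving out each DKO library. Limma called 0 of the factors under all 10 alternatives that gave a test, with smallest adjusted p from 0.512 to 0.999. At an unadjusted p under 0.05 it had 1 in 8 of them and 0 with quantile normalization and TPM. Without a filter that 1 was not Eif4ebp1 but a factor outside the 13. There the smallest limma adjusted p was 0.779 and that of Eif4ebp1 was 0.922. Leaving out a DKO library leaves no residual degree of freedom and so gives no test. The sign of the mean difference of each of the 13 genes was the same in every alternative that gave a test of it.

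The count of factors below WT by the 2-fold size rule went from 0 to 1, Eif2s3x, since its differences lie at the threshold. This was so with a pseudocount of 0.1, median scaling, quantile normalization, TPM and haemoglobin removed. The 1.5-fold rule also counted 1 below WT, again Eif2s3x. Leaving out a DKO library gave 2 to 3 lower and 1 higher. Without a filter, 24 factors entered and 3 were above WT in both DKO libraries instead of 1 (an alternative chosen after seeing the data, as were the other alternatives for the counts above or below WT in both; these counts were themselves added then). The median over the factors, −0.45, became −0.50 with a filter at 5 RPKM, −0.52 with median scaling, −0.51 with quantile normalization, −0.53 with haemoglobin removed and −0.67 with TPM, where the median of all transcripts itself moved to −0.20; with 1 DKO library it was −0.36 to −0.34. The median of the 4 tested genes around eIF2, −0.98, was −0.68 with a pseudocount of 5 and −1.19 with TPM, and −0.83 to −0.59 with 1 DKO library. The value for the cap-binding factors, −0.38, was −0.51 with quantile normalization and −0.60 with TPM. With 1 DKO library each, Eif6 ran from −0.63 to 0.50, Eef2 from −0.34 to 0.81, Eif3e from −0.92 to 0.03 and Eif1 from −0.19 to 0.11, so the directions of these 4 rest on 1 library. No paired analysis was possible because there was 1 WT library and its label carries no replicate number.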

Other observations

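As a share of all RPKM outside the haemoglobin genes, the 64 translation factor transcripts took 0.697% in WT, 0.515% in DKO 1 and 0.515% in DKO 2. Most of that share is Eef1a1, and no test was made of it.

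Cycling cells are known for high levels of translation factors, and 5 of 6 genes listed for such cells were in the table. Their summed level was close in the libraries, at 309 RPKM in WT, with DKO 1 at 327 and DKO 2 at 307. Pcna, the replication clamp, made up most of the sum with 216, 222 and 220.4 RPKM. Mki67, a marker of proliferation, followed the order of Eif3a and Eif2a with 14.3, 7.87 and 5.32 RPKM, and so did the topoisomerase gene Top2a with 25.5, 22.3 and 12.1. WT was instead the lowest library in Cdk1, with 46.9, 66.4 and 61.0 RPKM, and in the helicase gene Mcm2, with 5.95, 8.23 and 8.65. None of the 5 passed limma (adjusted p = 0.999 for each). The part of cycling cells in the values of the translation factors was not tested.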
